A study of Homo sapiens with 32 samples.

Results

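Translation initiation factors were taken as a list of 42 human genes: the eIF1, eIF2, eIF2B, eIF3, eIF4, eIF5, eIF5A and eIF6 factors and their close relatives. They were found by symbol in the deposited table of 19023 genes, which held 40 of them. EIF2B5 and EIF3E are not analysed here. The cells were RPE-1, an established human line from retinal pigment epithelium, labelled wild type (WT) in every library. Cells had been kept without serum for 18 h and were collected then (0 h) or after 5 h, 10 h or 15 h of serum, and the starved cells were the control for each time. At each time there were 4 biological replicates of total RNA sequencing, depleted of ribosomal RNA, and 4 of ribosome profiling, in which the fragments of mRNA covered by ribosomes (footprints) are sequenced. Levels are given in CPM, the usual count per gene scaled to the size of the library. A change of translational efficiency (TE) is the footprint change beyond the RNA change of the same gene. A gene was called changed where edgeR's quasi-likelihood test gave a p under 0.05 after Benjamini-Hochberg adjustment across the whole table tested. Of the 40 members in the table, 38 had enough counts to be tested in RNA and TE and 39 in footprints.

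Initiation factors bring the initiator tRNA and the small ribosomal subunit to an mRNA and find its start codon. eIF4E binds the cap at the 5′ end, eIF4G is the scaffold that joins it to the helicase eIF4A, and eIF4B and eIF4H stimulate the helicase. eIF3 is a complex of many subunits on the small subunit, eIF2 carries the initiator tRNA, eIF2B reloads eIF2 with GTP, and eIF5B joins the large subunit. Several of these genes, EIF4B, EIF3E, EIF3F and EIF3H among them, are known to make TOP mRNAs. Those start with a C followed by a run of C and T (a 5′ terminal oligopyrimidine tract) and are translated little when the growth factor kinase mTORC1 is inactive.

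The annotated first bases of members are shown so that members whose footprints rose beyond RNA can be set beside members whose footprints did not. Each line gives 24 bases of the sense strand from RefSeq (GRCh38.p14), 8 before the annotated start and 16 from it. The annotated first base is thus the 9th letter. Capitals mark a TOP-like run, searched on the sense strand only: a C within 5 bases of the annotated start with at least 4 further C or T letters. The first 7 have a C at the first base itself, with at least 4 further C or T letters, and rose in TE at 5 h. EIF3M and EIF2D, not shown, have such a C too. EIF3M rose in TE at 5 h, by 0.86 ± 0.17, and the EIF2D TE change of 0.18 ± 0.48 at 5 h did not pass. Members with a run elsewhere in the window are not shown either. The last 5 hold no run, and of these EIF4A1 and EIF3I rose in TE.
EIF4B: atccgggtCTTTTgcgttctcttt
EIF3F: tccgCCTCCTTCTTTCTCgacaag
EIF2S3: tttCCTTCCTCTTTTggcaacatg
EIF2A: agcggtttCTCTTTCCgggacaac
EIF3D: catgtttCCTCTTTTCCTggtttc
EIF3K: tccaccaCCTCTTCCTgttcccgt
EIF4A2: gccgctgtCTTTTCagtcgggcgc
EIF3B: gcacgcacatggctgggctgtagc
EIF2S1: ggttccgcatgcgcggtggagtga
EIF4A3: gcagcggcacagcgaggtcggcag
EIF4A1: cactccgccctagtttctaaggat
EIF3I: ccggtcttactcacgttgcggcct
The runs differed in length, from 5 letters in EIF4B and 6 in EIF4A2 to 14 in EIF3F. These are annotated starts, and the starts used in these cells were not measured. No start is listed for EIF2S2, EIF3A, EIF3G, EIF3H and EIF3L. The 24-base windows were chr12:53006448-53006471 (plus strand) for EIF4B, chr11:7987329-7987352 (plus strand) for EIF3F, chrX:24054948-24054971 (plus strand) for EIF2S3, chr3:150546779-150546802 (plus strand) for EIF2A, chr22:36529151-36529174 (minus strand) for EIF3D, chr19:38619180-38619203 (plus strand) for EIF3K, chr3:186783569-186783592 (plus strand) for EIF4A2, chr7:2354819-2354842 (plus strand) for EIF3B, chr14:67360320-67360343 (plus strand) for EIF2S1, chr17:80147113-80147136 (minus strand) for EIF4A3, chr17:7572817-7572840 (plus strand) for EIF4A1 and chr1:32222399-32222422 (plus strand) for EIF3I.

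Total counts ran from 595851 to 1107470 in RNA libraries and from 2851423 to 9901322 in footprint libraries, so RNA values carry more counting error. The RNA libraries numbered 2 at 5 h, 10 h and 15 h stood apart together: EIF4G1 read 625 CPM in the 5 h one and at most 352 in the others of that time. The 0 h library numbered 2 lay within its group (EIF4G1 396 CPM). Its deviations from its group correlated with those of the 5 h, 10 h and 15 h libraries numbered 2 at 0.26, 0.27 and 0.31. Those of RNA 0 h library 3 correlated with the same libraries more strongly, at 0.43, 0.51 and 0.41. Counts of RNA calls are also given without all 4 libraries numbered 2, a choice made after seeing the data. That choice keeps RNA 0 h library 3. Markers of the line were abundant (VIM, a mesenchymal filament, at least 5284 CPM in RNA as a group mean). Those of mature pigment epithelium were near 0 (RPE65 at most 0.234 and TYR at most 0.27 CPM in RNA group means), while MITF, OTX2, MERTK and BEST1 had counts. Of the markers of other cell types looked up, HBB, of red cells, had no count in any library. PTPRC, PECAM1, COL1A1 and COL1A2 read at most 4.48 CPM in any RNA library. CD68 had counts in every library, from 8.19 to 30.7 CPM in RNA and from 74.6 to 112 CPM in footprints. COL1A1 footprints read from 4.54 to 13.6 CPM. There was no spike-in, so each change is relative to the other genes, and fewer cells of a kind and less RNA per cell cannot be told apart.

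Footprints of nearly all initiation factors rose after serum, and RNA of fewer than 1 in 2. In footprints, 33 of 39 tested members were higher at 5 h (35.2% of all genes), 35 at 10 h (39.4% of all genes) and 36 at 15 h (40.1% of all genes). One member was lower at each time, where 40.5%, 39.0% and 39.6% of all genes were lower. It was EIF4G3 at 5 h and EIF4E3 at 10 h and 15 h. The median footprint change of the members was 0.79, 0.91 and 0.97 on the log2 scale at the 3 times, and that of all genes -0.065, -0.019 and -0.0092. In RNA, 15 of 38 were higher at 5 h (19.2% of all genes) and 0 lower (16.7% of all genes), with edgeR and with DESeq2, and 0 fell at an unadjusted p under 0.05. At 10 h 13 were higher (23.3%) and 6 lower (21.5%), and at 15 h 15 were higher (25.4%) and 9 lower (25.4%). Without the RNA libraries numbered 2, 13, 15 and 15 were higher and 0, 3 and 5 lower. The median RNA change was 0.15, 0.29 and 0.26.

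TE rose in 14 of 38 members at 5 h (4.13% of all genes), 15 at 10 h (5.44%) and 17 at 15 h (7.03%). It fell in 1 member, EIF4A3, at 5 h (2.34% of all genes). At 10 h and 15 h 0 members fell with edgeR and with DESeq2 (1.80% and 3.94% of all genes), and 2 had a negative change at an unadjusted p under 0.05 at each. The members' median TE change was 0.41, 0.39 and 0.43, against -0.057, -0.042 and -0.038 for all genes. Members together took 0.566% ± 0.012 of footprint counts at 0 h and 0.902% ± 0.0363, 0.953% ± 0.0218 and 0.934% ± 0.0187 at 5 h, 10 h and 15 h (mean ± SD, n = 4). Their share of RNA counts was 1.07% ± 0.0604, 1.24% ± 0.0236, 1.24% ± 0.0239 and 1.15% ± 0.0226. The footprint share was lower in each starved library than in every library with serum.

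**Figure D1:**
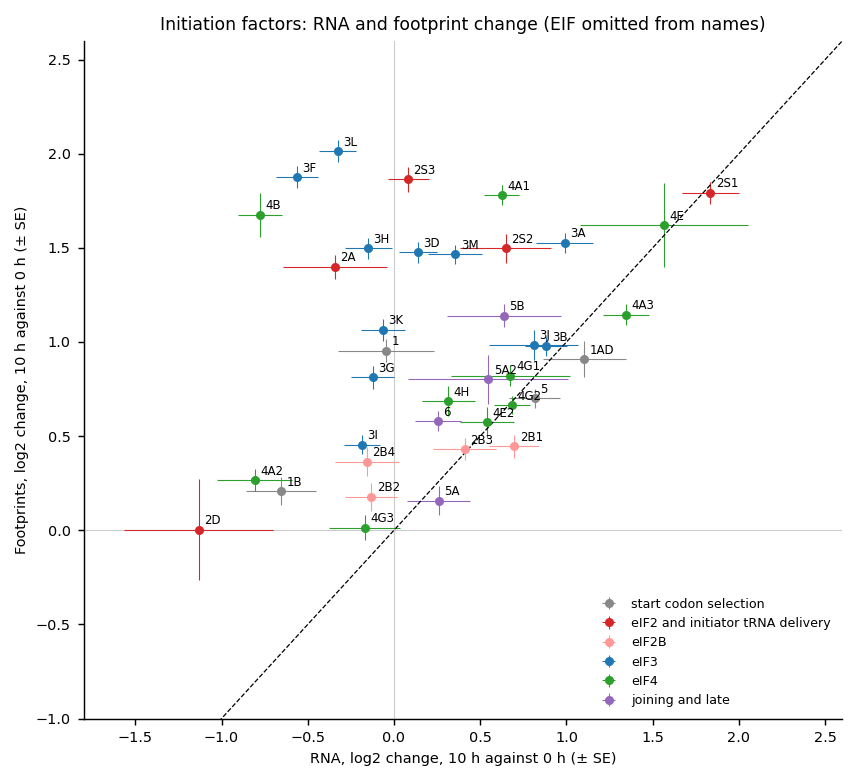
Log2 change at 10 h against 0 h of RNA (horizontal) and footprints (vertical) for the 38 members tested in both, coloured by family, with bars of 1 SE from edgeR and a dashed line where both changes are equal. EIF3L, EIF3F, EIF4B and EIF2S3 lie far above the line, with footprint changes from 1.67 to 2.01 and RNA changes from -0.78 to 0.082, while EIF2S1, EIF3B, EIF5 and EIF4G2 lie near it.

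Among the factors of start codon selection, footprints of all 4 tested rose at each time (35.2%, 39.4% and 40.1% of all genes). EIF1, which keeps the scanning ribosome from settling on a wrong codon, was the one with a TE rise at every time. EIF1 footprints read 134, 153, 144 and 148 CPM at 0 h, 419, 385, 462 and 428 at 5 h, 276, 269.9, 296 and 280.0 at 10 h, and 255, 306, 306 and 294 at 15 h. All starved libraries lay below all libraries with serum, and 5 h was the highest time. EIF1 RNA read 29.1, 22.2, 30.3 and 22.4 CPM at 0 h, 31.1, 28.1, 44.7 and 25.96 at 5 h, 23.6, 31.7, 12.5 and 29.7 at 10 h, and 14.7, 23.4, 29.7 and 27.1 at 15 h, with the times overlapping and few counts (81 over the 4 starved libraries). The EIF1 TE change was 1.19 ± 0.25, 0.87 ± 0.25 and 1.01 ± 0.25 (log2 ± SE; edgeR adjusted p = 0.00109, 0.022 and 0.00569). The 10 h call was lost without any 1 of RNA 0 h libraries 1 and 3 and RNA 10 h library 3, at adjusted p from 0.0568 to 0.0716 with edgeR.

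Its paralog EIF1B moved little in footprints: 42.01, 39.1, 36.4 and 36.5 CPM at 0 h, 47.7, 45.7, 41.8 and 46.8 at 5 h, 45.6, 45.3, 43.6 and 41.4 at 10 h, and 52.2, 54.3, 59.4 and 51.01 at 15 h. Only at 15 h was each library above every starved one. EIF1B RNA read 32.7, 31.8, 24.6 and 32.9 CPM at 0 h, 31.1, 24.1, 25.9 and 24.9 at 5 h, 21.5, 18.3, 18.7 and 18.9 at 10 h, and 18.9, 19.6, 20.7 and 22.9 at 15 h. All 10 h and 15 h libraries lay below all starved ones, and the changes were -0.65 ± 0.20 and -0.57 ± 0.20 (edgeR adjusted p = 0.0122 and 0.0217), calls that were lost without the RNA libraries numbered 2 (-0.54 ± 0.26, edgeR adjusted p = 0.104 and -0.44 ± 0.26, edgeR adjusted p = 0.174). EIF5, which makes eIF2 hydrolyse its GTP at the start codon, rose alike in RNA, by 0.68 ± 0.15, 0.82 ± 0.15 and 1.24 ± 0.15, and in footprints, by 0.68 ± 0.052, 0.70 ± 0.052 and 1.07 ± 0.051. EIF1AD, a relative of eIF1A, also rose in both, with RNA changes from 1.02 to 1.16 and footprint changes from 0.91 to 1.10. TE of EIF5 and EIF1AD passed at no time. EIF1B TE did not pass at 5 h (0.44 ± 0.19, edgeR adjusted p = 0.225). It rose by 0.76 ± 0.19 at 10 h and 0.95 ± 0.19 at 15 h (edgeR adjusted p = 0.0169 and 0.00075). The 10 h call was lost in 3 alternatives, among them without the RNA libraries numbered 2 (edgeR adjusted p = 0.0692).

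The 3 subunits of eIF2, which together carry the initiator tRNA, all gained footprints at each time (35.2%, 39.4% and 40.1% of all genes). In RNA the subunits parted. EIF2S1, the alpha subunit that stress kinases phosphorylate, had RNA of 83.6, 86.9, 64.98 and 100.1 CPM at 0 h, 274, 204, 278 and 270.4 at 5 h, 359.5, 278, 276 and 285 at 10 h, and 412, 298, 314 and 372 at 15 h. Its footprints read 125, 105, 129 and 109 CPM at 0 h, 301, 315, 321 and 307 at 5 h, 419, 403, 419 and 375 at 10 h, and 428, 452, 423 and 460.0 at 15 h. In both assays each library with serum exceeded each starved one. The RNA change was 1.61 ± 0.16, 1.84 ± 0.16 and 2.05 ± 0.16 and the footprint change 1.41 ± 0.06, 1.79 ± 0.06 and 1.92 ± 0.06. Its TE change ran from -0.28 to -0.15 and passed at no time (lowest edgeR adjusted p = 0.315).

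EIF2S3, the gamma subunit that binds the tRNA and GTP, rose in footprints with RNA that passed at no time. EIF2S3 RNA read 282, 276, 232 and 303 CPM at 0 h, 281, 285, 318 and 312 at 5 h, 319.5, 262, 287 and 290.0 at 10 h, and 285, 263, 294 and 297 at 15 h, with every time overlapping the starved libraries. EIF2S3 footprints read 47.04, 51.4, 46.8 and 45.3 CPM at 0 h, 179.7, 152, 175 and 178 at 5 h, 183, 172, 175 and 162 at 10 h, and 198, 189.6, 195 and 180.5 at 15 h, all starved libraries being lower than all others. The footprint rise was 1.85 ± 0.065, 1.86 ± 0.065 and 2.0 ± 0.065, 4.01-fold at 15 h. The TE change was 1.67 ± 0.13, 1.67 ± 0.13 and 1.81 ± 0.13 (edgeR adjusted p = 4.14e-13, 3.69e-13 and 3.89e-14).

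EIF2S2, the beta subunit, rose in both assays, by 0.80 ± 0.26, 0.65 ± 0.26 and 1.04 ± 0.26 in RNA and by 1.48 ± 0.08, 1.5 ± 0.079 and 1.64 ± 0.079 in footprints, and its TE change of 0.73 ± 0.28 at 10 h did not pass (edgeR adjusted p = 0.117). Its RNA call at 10 h had an edgeR adjusted p of 0.0497 and was lost in 12 alternatives, with adjusted p of up to 0.205. EIF2A, a separate protein that can bring initiator tRNA without GTP, had footprint changes of 1.43 ± 0.064, 1.40 ± 0.064 and 1.45 ± 0.064. EIF2A RNA read 205, 202, 96.7 and 236 CPM at 0 h, 189.8, 122, 206 and 227 at 5 h, 225, 77.8, 133 and 149 at 10 h, and 243, 125, 176 and 239.5 at 15 h, spread widely within each time, and its TE rose by 1.38 ± 0.31, 1.63 ± 0.31 and 1.23 ± 0.31. EIF2D, a factor of noncanonical initiation and recycling, was sparse, with a counted length of 129 bases, the shortest of the members: its RNA read 15.8, 13.8, 14.4 and 13.4 CPM at 0 h, 5.17, 9.03, 18.8 and 8.65 at 5 h, 1.02, 6.73, 14.1 and 6.3 at 10 h, and 4.2, 6.54, 3.87 and 5.21 at 15 h, and its footprints were at most 3.13 CPM in any library. The EIF2D RNA change was -1.13 ± 0.43 at 10 h and -1.49 ± 0.45 at 15 h (edgeR adjusted p = 0.0381 and 0.00922), and all 15 h libraries lay below all starved ones. The EIF2D call at 10 h was lost in 12 alternatives, among them without the RNA libraries numbered 2 (edgeR adjusted p = 0.0953), and a TE call at 15 h of 1.56 ± 0.50 was lost in 10.

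eIF2B, the exchange factor of eIF2, had small footprint changes. Footprints of 2 of its 4 tested subunits were higher at 5 h, near the share of all genes (35.2%). Those of all 4 were higher at 10 h and 15 h (39.4% and 40.1% of all genes), with changes at 15 h from 0.41 for EIF2B2 to 0.57 for EIF2B3. RNA of EIF2B1 rose at each time, by 0.61 ± 0.14 at 15 h, and its call at 5 h was lost without the RNA libraries numbered 2. RNA of EIF2B3, which was called at 10 h without those libraries, rose by 0.56 ± 0.18 and that of EIF2B4 fell, to -0.47 ± 0.19, at 15 h, the latter call lost in 17 alternatives. In TE, 0 of 4 passed at 5 h and at 10 h with edgeR and with DESeq2, where 1 and 2 had an unadjusted p under 0.05. Of all genes 4.13% and 5.44% were higher in TE at these times and 2.34% and 1.80% lower. At 15 h EIF2B4 rose by 0.80 ± 0.20 and EIF2B2 by 0.55 ± 0.15 (edgeR adjusted p = 0.00462 and 0.0124).

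Of the eIF3 subunits, 11 could be tested, and footprints of all 11 rose at each time (35.2%, 39.4% and 40.1% of all genes). RNA of EIF3A, EIF3B and EIF3J was higher at each time and that of EIF3M at 5 h; RNA of EIF3F and EIF3L was lower at 10 h and 15 h, and of EIF3G and EIF3I at 15 h. Without the RNA libraries numbered 2 the RNA calls of EIF3J at 5 h and 15 h, of EIF3I at 15 h and of EIF3L at 10 h and 15 h were lost, and EIF3M was also called higher at 10 h and 15 h (edgeR adjusted p = 0.0107 and 0.0192). Of all genes 19.2%, 23.3% and 25.4% were higher in RNA at the 3 times, and 16.7%, 21.5% and 25.4% lower. TE rose at each time in the same 8 subunits, EIF3D, EIF3F, EIF3G, EIF3H, EIF3I, EIF3K, EIF3L and EIF3M (4.13%, 5.44% and 7.03% of all genes). TE did not pass in EIF3A, EIF3B and EIF3J. Without the RNA libraries numbered 2, TE of EIF3A passed at each time. The median TE change of the 11 was 0.86, 1.0 and 1.13. EIF3C, a core subunit with a near-identical copy, EIF3CL, had 1 to 10 counts over a whole group and EIF3CL had 0 counts, so neither was tested. How reads shared by the 2 genes were assigned is not given in the sources used here.

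EIF3F, a subunit with a deubiquitinase-like fold, had the largest TE change among eIF3 subunits at each time. EIF3F RNA read 279.8, 279, 289 and 257 CPM at 0 h, 226, 284, 222 and 227 at 5 h, 185, 184, 198 and 181 at 10 h, and 172, 170.1, 154 and 166 at 15 h. EIF3F footprints read 59.5, 59.7, 62.3 and 56.7 CPM at 0 h, 239.6, 254, 235 and 229 at 5 h, 231, 205, 229 and 209 at 10 h, and 185, 199, 203 and 199 at 15 h. Starved libraries were the highest in RNA apart from 5 h library 2, and the lowest in footprints with no overlap. Footprints rose by 2.01 ± 0.06, 1.88 ± 0.06 and 1.73 ± 0.06 (4.02-fold at 5 h), RNA changed by -0.20 ± 0.12, -0.56 ± 0.12 and -0.74 ± 0.12, and TE rose by 2.16 ± 0.12, 2.34 ± 0.12 and 2.32 ± 0.12 (edgeR adjusted p at 5 h = 7.71e-17).

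EIF3L, a peripheral subunit, was close to it. EIF3L RNA read 409, 407, 365 and 348 CPM at 0 h, 383, 422, 378 and 385 at 5 h, 308, 292, 315 and 306 at 10 h, and 284, 276, 289 and 299 at 15 h. EIF3L footprints read 47.9, 52.05, 49.6 and 46.3 CPM at 0 h, 219, 192, 209.6 and 209 at 5 h, 199, 189.5, 209.9 and 192 at 10 h, and 192, 196, 198 and 203 at 15 h. Each library with serum held at least 3.64 times the footprint CPM of the highest starved one. The footprint change of 2.08 ± 0.06 at 5 h, 4.24-fold, was the largest of any member at any time. TE rose by 2.0 ± 0.11, 2.23 ± 0.11 and 2.29 ± 0.11. The fall in its RNA, -0.33 ± 0.11 at 10 h and -0.42 ± 0.11 at 15 h, was lost without the RNA libraries numbered 2 (-0.21 ± 0.13, edgeR adjusted p = 0.183 and -0.28 ± 0.13, edgeR adjusted p = 0.0776).

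EIF3B, a scaffold of the core that EIF3G and EIF3I bind, had the smallest TE change at 5 h. EIF3B RNA read 558, 661, 673 and 514 CPM at 0 h, 875, 1022, 841 and 987 at 5 h, 956, 1276, 1071 and 1138 at 10 h, and 971, 1058, 1022 and 1082 at 15 h. EIF3B footprints read 281, 281, 312 and 284 CPM at 0 h, 462, 500.5, 483 and 483 at 5 h, 552, 579.8, 569 and 582 at 10 h, and 565, 556, 556 and 587 at 15 h. Both rose together with no overlap with the starved libraries, by 0.63 ± 0.12, 0.88 ± 0.12 and 0.78 ± 0.12 in RNA and 0.73 ± 0.05, 0.98 ± 0.05 and 0.96 ± 0.05 in footprints. The TE change was 0.059 ± 0.13, -0.012 ± 0.13 and 0.051 ± 0.13, with 95% intervals of -0.19 to 0.31, -0.26 to 0.24 and -0.20 to 0.30. EIF3A, the largest subunit, rose by 0.93 ± 0.17, 0.99 ± 0.17 and 0.97 ± 0.17 in RNA and 1.53 ± 0.052, 1.53 ± 0.052 and 1.46 ± 0.052 in footprints. Its TE change at 5 h, 0.55 ± 0.18, just missed the threshold (edgeR adjusted p = 0.0524) and passed in 13 alternatives, among them without the RNA libraries numbered 2 (edgeR adjusted p = 0.0154). At 10 h and 15 h it was 0.43 ± 0.18 and 0.36 ± 0.18 (edgeR adjusted p = 0.152 and 0.204), and without those libraries 0.44 ± 0.14, edgeR adjusted p = 0.0456 and 0.48 ± 0.14, edgeR adjusted p = 0.0185.

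Of the other subunits, EIF3H, like EIF3F of the MPN-domain pair, had TE changes of 1.42 ± 0.14, 1.54 ± 0.14 and 1.51 ± 0.14. EIF3D, a subunit that can itself bind a cap, had 1.10 ± 0.12, 1.24 ± 0.12 and 1.34 ± 0.12. EIF3K, EIF3M and EIF3G had TE changes between 0.74 and 1.15 over the 3 times. EIF3I had the smallest footprint rise of the complex, 0.30 ± 0.049, 0.46 ± 0.049 and 0.48 ± 0.049. EIF3J, which is loosely bound and helps to load and release the complex, rose by 1.24 ± 0.078, 0.98 ± 0.079 and 1.09 ± 0.079 in footprints, with TE changes of 0.48 ± 0.26, 0.066 ± 0.25 and 0.17 ± 0.25.

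**Figure D2:**
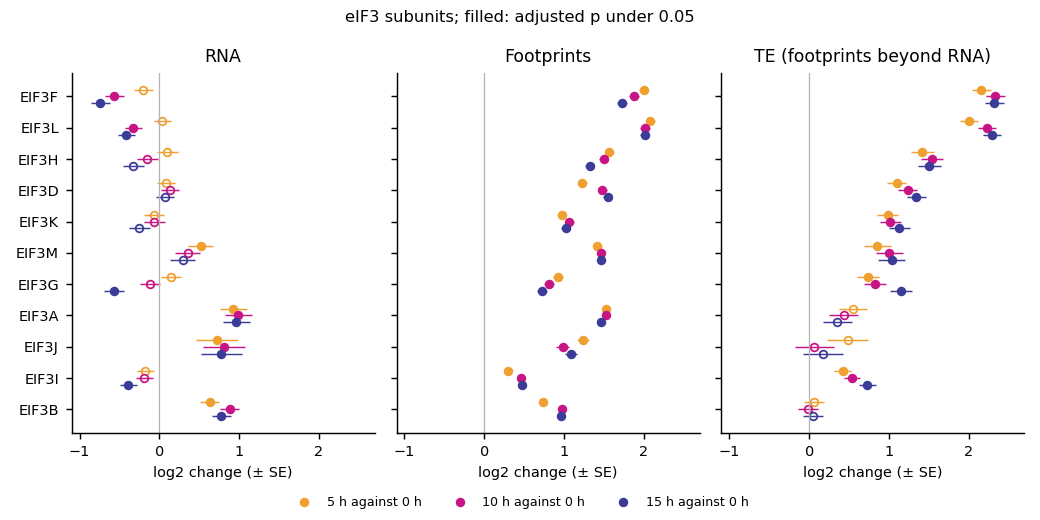
Log2 change against 0 h (horizontal, bars of 1 SE from edgeR) of the 11 eIF3 subunits in RNA, footprints and TE at 5 h, 10 h and 15 h, ordered by TE at 5 h, with filled points for an adjusted p under 0.05. Footprint points are all filled and right of 0, while TE runs from 0.059 for EIF3B to 2.16 for EIF3F at 5 h.

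Subunits of the complex also differed in level, and less so with serum. Per kilobase of coding length, the footprint level of the highest of the 11 subunits was 14.8 ± 0.759 times that of the lowest in starved libraries (mean ± SD, n = 4), 7.91 ± 0.247 times at 5 h, 9.74 ± 0.449 at 10 h and 9.1 ± 0.444 at 15 h. The lowest starved subunit was EIF3L and the highest EIF3I; at 5 h they were EIF3J and EIF3M. The SD of log2 footprint CPM per kilobase over the 11 subunits ran from 1.12 to 1.15 in starved libraries, from 0.869 to 0.9 at 5 h, from 0.925 to 0.96 at 10 h and from 0.894 to 0.939 at 15 h. Starved libraries did not overlap with the others. In RNA the same SD ran from 1.45 to 1.78 at 0 h and from 1.24 to 1.43, 1.24 to 1.36 and 1.07 to 1.33 later, also without overlap with the starved libraries. EIF3J was the lowest in every RNA library, with only 21, 17, 11 and 6 counts in the starved ones. The starved library with 6 counts had the SD of 1.78. The gap between starved and later RNA libraries was narrow, 1.45 against 1.43, and the SD without EIF3J was not computed.

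**Figure D3:**
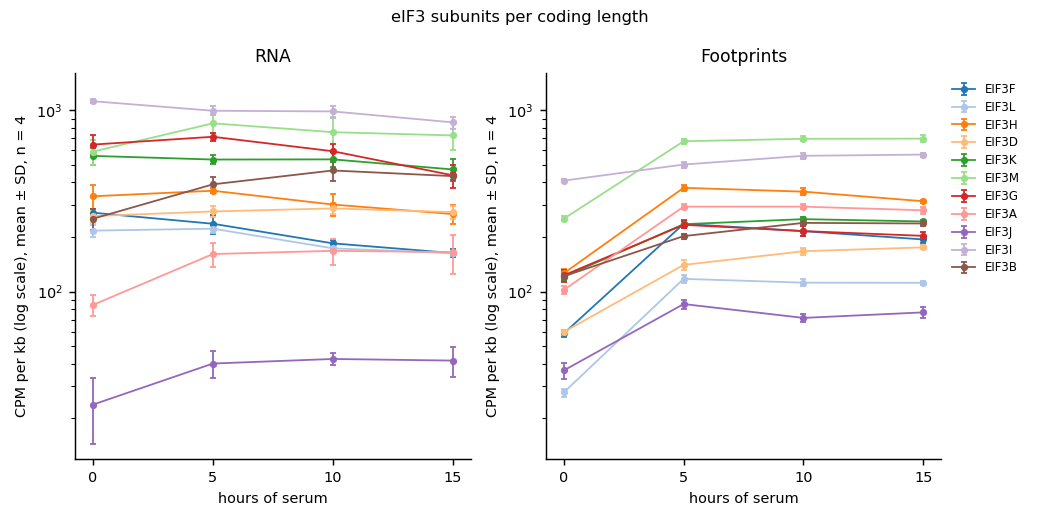
Level of 11 eIF3 subunits in CPM per kilobase of coding length (log scale, mean ± SD of 4 libraries) against hours of serum in RNA and footprints. In footprints EIF3L starts lowest and EIF3I highest, and the ratio of the highest to the lowest subunit goes from 14.8 at 0 h to 7.91 at 5 h, while EIF3J is lowest in RNA throughout.

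In the eIF4 group, which binds the cap and unwinds the leader, footprints of 9 of 11 tested members were higher at each time (35.2%, 39.4% and 40.1% of all genes). RNA of 5 of 10 was higher at each time (19.2%, 23.3% and 25.4% of all genes), with 2 lower at 10 h and 15 h, EIF4A2 and EIF4B (21.5% and 25.4% of all genes). TE was higher in EIF4B and EIF4A1 at each time and in EIF4A2 at 5 h and 10 h. EIF4B footprints read 14.2, 11.5, 17.3 and 14.4 CPM at 0 h, 55.1, 38.3, 54.7 and 48.7 at 5 h, 49.6, 43.9, 47.9 and 43.7 at 10 h, and 37.5, 45.1, 44.6 and 47.3 at 15 h. EIF4B RNA read 394, 319.9, 284 and 366 CPM at 0 h, 293, 292, 297 and 299 at 5 h, 209, 186, 192 and 209.9 at 10 h, and 173, 185, 221 and 193 at 15 h. Starved footprint libraries were all below the others, and starved RNA libraries above all of 10 h and 15 h. Footprints rose by 1.77 ± 0.12, 1.67 ± 0.12 and 1.60 ± 0.12, RNA changed by -0.21 ± 0.12, -0.78 ± 0.13 and -0.82 ± 0.13, and TE rose by 1.93 ± 0.17, 2.35 ± 0.17 and 2.29 ± 0.17. The 10 h value, 5.09-fold, was the largest TE change of any member at any time (edgeR adjusted p = 9.27e-14).

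The helicase paralogs EIF4A1 and EIF4A2 went different ways. EIF4A1 RNA read 736, 700.1, 656 and 676 CPM at 0 h, 1133, 1190.0, 1004 and 1174 at 5 h, 1015, 1089, 1077 and 1086 at 10 h, and 1003, 914, 1025 and 1077 at 15 h. EIF4A1 footprints read 185, 170.0, 180.0 and 159 CPM at 0 h, 589, 548, 581 and 582 at 5 h, 591, 574, 617 and 595 at 10 h, and 622, 602, 597 and 637 at 15 h. In both, each starved library was below every other. EIF4A1 TE rose by 0.98 ± 0.11, 1.05 ± 0.11 and 1.15 ± 0.11. EIF4A2 RNA read 775, 611, 517 and 779 CPM at 0 h, 683, 426, 718 and 749.7 at 5 h, 481, 240.3, 417 and 394 at 10 h, and 456, 262, 386 and 472 at 15 h, and library 2 was the lowest of its time at 5 h, 10 h and 15 h. EIF4A2 footprints read 102, 110.1, 109 and 90.6 CPM at 0 h, 182, 170.3, 176 and 181 at 5 h, 128, 121, 125 and 119 at 10 h, and 87.9, 97.4, 93.98 and 96.4 at 15 h, high at 5 h and back among the starved values at 15 h. The footprint change went from 0.79 ± 0.057 at 5 h to 0.27 ± 0.058 and -0.12 ± 0.06, with RNA at -0.059 ± 0.22, -0.81 ± 0.22 and -0.77 ± 0.22. The EIF4A2 TE rise of 0.80 ± 0.23 at 5 h was lost in 6 alternatives (edgeR adjusted p = 0.0318, at most 0.0718). At 15 h, 0.51 ± 0.24, it did not pass, but it passed without the RNA libraries numbered 2 (edgeR adjusted p = 0.0396).

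EIF4A3, a helicase of the same family that works in the exon junction complex, was the 1 member whose TE fell. EIF4A3 RNA read 168, 136, 152 and 126 CPM at 0 h, 302, 242, 265 and 281 at 5 h, 359.5, 378, 423 and 319 at 10 h, and 437, 362, 408 and 427 at 15 h. EIF4A3 footprints read 130.5, 119, 124 and 105 CPM at 0 h, 164, 172, 174 and 165 at 5 h, 259, 259.7, 272 and 263 at 10 h, and 288, 302, 306 and 314 at 15 h. Each library with serum exceeded each starved one in both. RNA rose by 0.90 ± 0.13, 1.34 ± 0.13 and 1.49 ± 0.13 and footprints by 0.50 ± 0.057, 1.15 ± 0.056 and 1.35 ± 0.056. The TE change at 5 h, -0.45 ± 0.14 (edgeR adjusted p = 0.0485), was lost in 26 alternatives, with adjusted p from 0.0513 to 0.149.

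**Figure D4:**
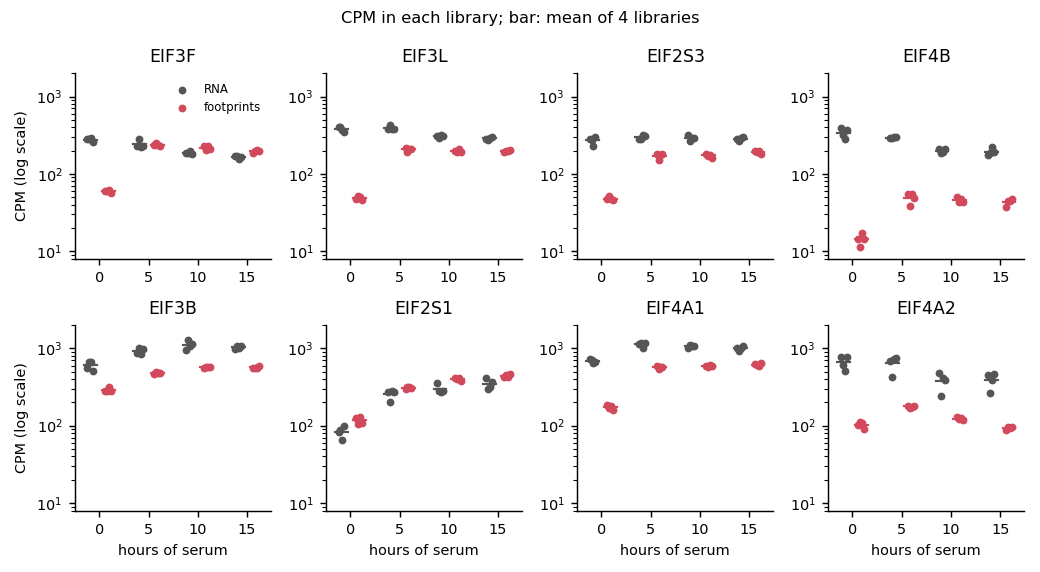
CPM (log scale) in each of the 4 RNA libraries (grey) and 4 footprint libraries (red) per time for 8 members, with bars at the mean. EIF3F, EIF3L, EIF2S3 and EIF4B have flat or falling RNA and footprints that step up at 5 h, EIF3B, EIF2S1 and EIF4A1 rise in both, and EIF4A2 footprints return to 93.9 ± 4.27 CPM at 15 h from 103 ± 8.84 at 0 h.

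EIF4E, the cap-binding protein, was counted sparsely in this table: 18 counts over the 4 starved RNA libraries and 38 over the 4 starved footprint libraries. EIF4E has processed pseudogenes, and how shared reads were assigned is not given, so its values are uncertain. EIF4E RNA read 12.1, 6.36, 1.44 and 1.5 CPM at 0 h, 18.98, 11.03, 23.6 and 30.3 at 5 h, 26.6, 12.5, 10.9 and 17.1 at 10 h, and 31.5, 16.8, 18.1 and 21.9 at 15 h. EIF4E footprints read 1.77, 1.49, 1.86 and 2.27 CPM at 0 h, 6.07, 6.29, 6.62 and 6.72 at 5 h, 4.93, 6.08, 5.84 and 6.63 at 10 h, and 7.13, 6.79, 4.54 and 6.63 at 15 h. Starved RNA library 1 was above the lowest library of 5 h and of 10 h, and footprints did not overlap with the starved values at any time. RNA rose by 1.86 ± 0.48, 1.57 ± 0.48 and 1.93 ± 0.47 and footprints by 1.76 ± 0.22, 1.62 ± 0.22 and 1.70 ± 0.22, with SE for TE of at least 0.55. EIF4E2, a cap-binding relative known as a repressor, had footprints of 25.1, 29.1, 26.8 and 27.4 CPM at 0 h, 41.3, 33.5, 37.05 and 36 at 5 h, 41.98, 36.7, 43.8 and 39.3 at 10 h, and 37.3, 35.5, 32.3 and 34.6 at 15 h. EIF4E2 RNA read 92.1, 88.97, 57.8 and 73.2 CPM at 0 h, 126, 108, 117 and 126 at 5 h, 114, 122, 93.7 and 125 at 10 h, and 94.5, 102, 95.5 and 106 at 15 h. EIF4E2 RNA changed by 0.60 ± 0.16, 0.54 ± 0.16 and 0.34 ± 0.16, the last without passing (it passed without the RNA libraries numbered 2, edgeR adjusted p = 0.0376). Its footprints rose by 0.44 ± 0.084, 0.57 ± 0.083 and 0.35 ± 0.085, and in both assays all libraries with serum were above all starved ones. EIF4E3 had 2 or 3 counts per time in RNA and at most 1.93 CPM as a group mean in footprints, which fell by 1.09 and 1.39 at 10 h and 15 h.

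Of the scaffolds, EIF4G1, the main partner of eIF4E, had footprints of 577, 505, 607 and 536 CPM at 0 h, 937, 853, 955 and 852 at 5 h, 1003, 926, 989 and 1013 at 10 h, and 1002, 949, 948 and 1024 at 15 h. All libraries with serum were above all starved ones, and the rise was 0.69 ± 0.056, 0.82 ± 0.056 and 0.82 ± 0.056. EIF4G1 RNA read 237, 396, 529.9 and 235 CPM at 0 h, 352, 625, 332 and 346 at 5 h, 362, 810.1, 486 and 572 at 10 h, and 388, 920.4, 450.5 and 378 at 15 h, with library 2 the highest at 5 h, 10 h and 15 h. Its RNA change, 0.68 ± 0.34 at 10 h, passed at no time, and without the RNA libraries numbered 2 it was 0.57 ± 0.25, edgeR adjusted p = 0.0804. EIF4G3, its paralog, had footprints of 126, 105, 120.3 and 109 CPM at 0 h, 107, 88.6, 106 and 95.5 at 5 h, 120.2, 111, 112 and 121 at 10 h, and 127, 137, 114 and 129 at 15 h, and RNA of 73.9, 55.1, 37.5 and 55.3 CPM at 0 h, 50.03, 44.1, 51.8 and 46.5 at 5 h, 53.3, 42.3, 35.9 and 63.95 at 10 h, and 60.9, 48.6, 64.5 and 49.99 at 15 h. Footprint libraries of the 4 times overlapped, with a change of -0.21 ± 0.067 at 5 h (edgeR adjusted p = 0.00541) and 0.15 ± 0.065 at 15 h, the latter lost in 7 alternatives. EIF4G2, a scaffold that lacks the eIF4E site, rose in RNA by 0.65 ± 0.10, 0.69 ± 0.10 and 0.84 ± 0.10 and in footprints by 0.56 ± 0.049, 0.67 ± 0.049 and 0.80 ± 0.049. EIF4H, which stimulates the helicase as EIF4B does, rose by 0.61 ± 0.08, 0.69 ± 0.078 and 0.86 ± 0.078 in footprints, and its TE change reached 0.34 ± 0.16 and passed at no time.

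Of the factors of subunit joining and later steps, 0 of 4 had a TE call at each time with edgeR, and 0, 0 and 1 with DESeq2. An unadjusted p under 0.05 was met by 0, 0 and 1 of them. Of all genes 4.13%, 5.44% and 7.03% were higher in TE and 2.34%, 1.80% and 3.94% lower. The count of 0 of 4 thus lay near the share of all genes. EIF5B footprints rose by 0.77 ± 0.06, 1.14 ± 0.059 and 1.12 ± 0.059, and EIF5B RNA by 0.81 ± 0.32 at 15 h, a call lost without the RNA libraries numbered 2 (0.47 ± 0.33, edgeR adjusted p = 0.244). EIF6, which keeps the large subunit from joining too early, rose in footprints by 0.32 ± 0.053, 0.58 ± 0.053 and 0.69 ± 0.053. Its TE change at 15 h was 0.41 ± 0.14 (edgeR adjusted p = 0.0515) and passed without the RNA libraries numbered 2 (edgeR adjusted p = 0.0429).

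EIF5A, the hypusine-carrying factor that helps ribosomes through difficult peptide bonds, changed little. EIF5A footprints read 222, 218, 201 and 235 CPM at 0 h, 222, 184, 205 and 168 at 5 h, 249, 229, 273 and 225 at 10 h, and 237, 276, 266 and 236 at 15 h. EIF5A RNA read 184, 203, 163 and 144 CPM at 0 h, 122, 216, 147 and 168 at 5 h, 180.2, 239, 225 and 190.1 at 10 h, and 149, 253, 194 and 221 at 15 h. All times overlapped in RNA, and the footprint change was -0.17 ± 0.078, 0.16 ± 0.077 and 0.21 ± 0.077, called at 15 h (edgeR adjusted p = 0.0138, lost without footprint 0 h library 3 or 15 h library 2). The values at 5 h and 10 h did not pass (edgeR adjusted p = 0.0501 and 0.0645), but the negative one at 5 h passed in 10 alternatives, DESeq2 among them, and the positive one at 10 h in 7. Its paralog EIF5A2 had footprints of 10.9, 7.44, 7.96 and 7.96 CPM at 0 h, 18.1, 18.4, 18.2 and 21.04 at 5 h, 15.3, 14.6, 15.3 and 12.8 at 10 h, and 13.1, 13.6, 16.8 and 14.5 at 15 h. EIF5A2 RNA read 8.48, 7.42, 8.66 and 2.99 CPM at 0 h, 13.8, 10.03, 20.02 and 22.7 at 5 h, 17.4, 5.77, 6.24 and 10.8 at 10 h, and 16.8, 4.67, 9.04 and 10.4 at 15 h. The footprints of EIF5A2 were above all starved libraries at each time and highest at 5 h, by 1.18 ± 0.13, 0.80 ± 0.13 and 0.81 ± 0.13.

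Ratios of paralogs were compared within libraries, as log2 of the ratio of raw counts with 0.5 added to each count. A two-sided exact permutation test set 4 libraries against 4, with 30 tests over 5 pairs in both assays and 3 times. The smallest p that 4 against 4 libraries can give is 0.0286, which was 0.0476 after adjustment over the 30 tests, and 18 tests were under 0.05. All 18 had this smallest p, so they share 1 adjusted value. That value depends on how many of the 30 tests reached the smallest p, and so on the pairs chosen. Ratios of other gene pairs were not compared, so no background share stands beside the 18. The footprint ratio of EIF4A1 to EIF4A2 grew 1.92, 2.85 and 3.88-fold at the 3 times, and the RNA ratio 1.71, 2.74 and 2.5-fold (exact permutation adjusted p = 0.0476 in both assays at each time). In footprints EIF1 gained on EIF1B 2.48, 1.7 and 1.42-fold, EIF4E on EIF4E2 2.47, 2.05 and 2.51-fold and EIF4G1 on EIF4G3 1.88, 1.75 and 1.6-fold. Each of these 9 footprint ratios had no overlap with the starved libraries and the smallest possible p. EIF5A lost ground to EIF5A2 in footprints, 2.5-fold at 5 h and 1.52-fold at 10 h, and 1.46-fold at 15 h without passing (exact permutation adjusted p = 0.0857).

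Between later times the changes were smaller. From 5 h to 10 h footprints of 14 members rose (31% of all genes) and of 7 fell (30.7%), and from 10 h to 15 h 8 rose (20.8%) and 4 fell (20.2%). EIF4A3 had the largest rise from 5 h to 10 h, 0.64 ± 0.053, and EIF1 and EIF4A2 fell by 0.59 ± 0.057 and 0.52 ± 0.054. From 10 h to 15 h EIF5 rose most, by 0.37 ± 0.048, and EIF4A2 fell most, by 0.39 ± 0.056. RNA of 1 member, EIF4A3, rose from 5 h to 10 h (10.1% of all genes), and RNA of EIF3F, EIF3L, EIF4A2 and EIF4B fell (9.56%). Without the RNA libraries numbered 2 these counts were 0 and 2. From 10 h to 15 h 0 rose in RNA with edgeR and with DESeq2 (3.81% of all genes; 1 at an unadjusted p under 0.05) and EIF3G fell, by 0.44 ± 0.13 (2.11% of all genes; edgeR adjusted p = 0.0376). TE of 0 members was called from 5 h to 10 h and from 10 h to 15 h with edgeR and with DESeq2, where 0.595% of all genes were called higher and 0.0572% lower in the first interval and 0% in the second. At an unadjusted p under 0.05 there were 2 and 3 members, all higher.

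In starved cells several of the members whose TE later rose had few footprints for their RNA. Among the 8736 genes tested in both assays, ranked by footprint CPM over RNA CPM at 0 h (with 0.5 CPM added to each), EIF4B stood at percentile 0.424, EIF3L at 2.38, EIF4A2 at 3.15, EIF2S3 at 3.78, EIF3G at 4.32 and EIF3F at 5.49. At 10 h EIF3F was at percentile 68.3, EIF3L at 34.4, EIF2S3 at 30.1 and EIF4B at 4.67. At the other end, EIF5B was at percentile 99.6 and EIF1 at 98.6 in starved cells, both with at most 30.3 CPM in any starved RNA library. EIF2S1 went from percentile 78.1 to 74.9. The starved footprint and RNA values enter both this rank and the TE change, so the 2 are not independent.

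A gene with several listed starts was counted as holding the run if any of them held it. Of the 36 members with a listed start, 17 held the TOP-like run shown above (47.2%), EIF4E2, EIF4G1, EIF4G2 and EIF5 at only some of their starts. Of the 33 that were tested in TE, 16 held it, against 30.2% of the 7262 genes tested in both assays with a listed start. Of all 35116 listed promoters 21.1% held it, a share counted by promoter and not by gene. The 16 such members that were tested in TE had median changes of 0.83, 0.99 and 1.02 at the 3 times, and 9 of 16 rose at each. Of all 2190 genes tested with the run, 178, 219 and 276 rose, and of 5072 without it 116, 173 and 238. The 17 members without had 0.059, 0.07 and 0.051, and 2, 3 and 5 rose. For all genes tested the medians were 0.021, 0.023 and 0.046 with the run and -0.089, -0.068 and -0.061 without. As an alternative definition, the annotated first base itself had to be a C with at least 4 further C or T letters. The members that met it were EIF2A, EIF2D, EIF2S3, EIF3D, EIF3F, EIF3K, EIF3M, EIF4A2 and EIF4B. These were 9 of the 36 members with a listed start (25%), and 568 of the 7262 genes tested (7.82%) met it. How many of those 568 genes rose in TE was not counted, so the member counts by this definition have no all-gene share beside them. The median of the 9 members was 1.10, 1.24 and 1.34, and 8 of 9 rose at each time. EIF2D was the exception at 5 h and 10 h and EIF4A2 at 15 h. The 7 others with a run in the window were EIF1, EIF3J, EIF4E2, EIF4G1, EIF4G2, EIF5 and EIF5A2. They had medians of -0.044, 0.037 and 0.06, and 1, EIF1, rose. The run of EIF4G1 covers the first base, but that base is a T. EIF4A1 and EIF3I rose in TE at each time with no run in the window. These are counts and medians over few genes, with no test.

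**Figure D5:**
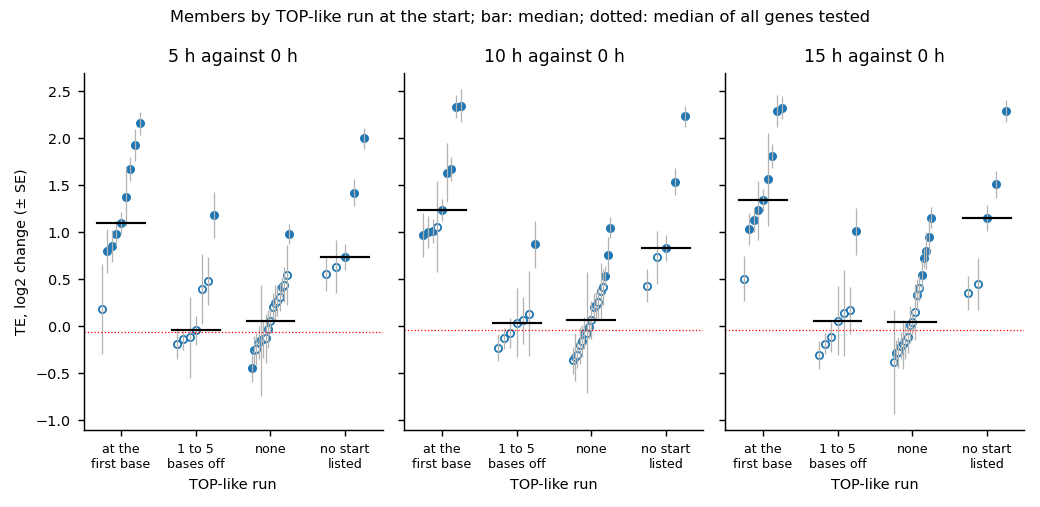
TE change (log2, bars of 1 SE from edgeR) at 5 h, 10 h and 15 h against 0 h of the 38 tested members, grouped by where a TOP-like run lies at the annotated start, with filled points for an adjusted p under 0.05, bars at the median and a dotted line at the median of all genes tested. At 5 h the median is 1.10 for the 9 members with a run from a C at the first base and 0.059 for the 17 with none. The 5 members with no start listed lie between 0.55 and 2.0.

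Other genes of the pathway, 32 by list with 31 in the table, moved in both directions. In footprints 17, 17 and 19 of 31 rose and 9, 9 and 7 fell at the 3 times, in RNA 7, 7 and 8 of 28 rose and 4, 4 and 2 fell, and in TE 4, 2 and 2 of 28 rose, with 1 lower at 5 h and 2 at 15 h. Of all genes 35.2%, 39.4% and 40.1% rose in footprints and 40.5%, 39.0% and 39.6% fell. In RNA 19.2%, 23.3% and 25.4% of all genes rose and 16.7%, 21.5% and 25.4% fell. In TE 4.13%, 5.44% and 7.03% of all genes rose and 2.34%, 1.80% and 3.94% fell. The RNA rises, and the TE rises at 10 h and 15 h, thus lay near the share of all genes. PABPC1, the poly(A)-binding protein that bridges the tail to eIF4G, rose in footprints by 2.46 ± 0.07, 2.38 ± 0.069 and 2.47 ± 0.07, while its RNA changed by -0.72 ± 0.24, -0.74 ± 0.24 and -0.55 ± 0.24, and its TE rose by 3.13 ± 0.25, 3.01 ± 0.25 and 2.87 ± 0.25. Among inhibitors, PDCD4, which binds eIF4A, fell in footprints by 2.06 ± 0.071, 2.55 ± 0.072 and 2.57 ± 0.073, and PAIP2B, which binds the poly(A)-binding protein, by 2.53 ± 0.32, 3.14 ± 0.34 and 2.31 ± 0.31. EIF4EBP1, which sequesters eIF4E, rose in footprints by 0.98 ± 0.13, 1.86 ± 0.12 and 2.04 ± 0.11. PPP1R15A, the phosphatase subunit that removes the stress phosphate from eIF2, rose by 2.74 ± 0.12, 1.55 ± 0.14 and 1.88 ± 0.13. Of the 4 eIF2 kinase genes, footprints at 5 h fell for EIF2AK1, EIF2AK2 and EIF2AK4, by 0.76 ± 0.062, 0.38 ± 0.062 and 0.48 ± 0.06, and rose for EIF2AK3, by 0.89 ± 0.098. ABCE1, the factor that splits ribosomes after termination, rose in RNA by 2.16 ± 0.27 and in footprints by 2.26 ± 0.06 at 10 h.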

How the data were processed

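RNA and footprints were each sequenced in 16 libraries. The authors deposited raw counts per gene and library, and STAR 2.5.4a, featureCounts 1.5.1 and GRCh38 are named in the submitters' processing notes. Annotation release, strand and multi-mapping settings are not given in the sources used here. RNA was extracted with Qiazol and miRNeasy, depleted with Ribo-Zero Gold and made into libraries with a QIAseq miRNA kit, per the labels' protocols. Deposited gene lengths were multiples of 3 in 96.5% of genes, so they are called coding length. Symbols were matched for 18905 of 19023 genes.

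edgeR 4.0.16 in R 4.3.3 was used with its filter on low counts, TMM scaling and a quasi-likelihood fit over all 4 times, for each assay alone and, for TE, for both with an assay by time interaction. Scripts were tested on simulated data. Biological variation between replicates was 18.5% in RNA and 5.47% in footprints. DESeq2 1.42.0, RLE factors, other filters, a replicate block, 2 times alone and leaving out libraries were alternatives. Comparisons with 0 h share the 0 h libraries. The members and lists were chosen with earlier results of these data known. Values in every library are given for the 3 called members with the largest rise and fall in each measure (at least 10 CPM at some time), the eIF3 subunits with the largest and smallest TE change at 5 h, and paralog pairs; EIF2A was added after its values were seen. Of other pathway genes, the rule named the 4 with the largest footprint change, and the others were chosen after their values were seen. Replicate numbers were not treated as pairs. No 2 libraries agreed within sampling noise.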

Additional observations from a re-analysis of the deposited data

Results flagged for a closer look

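In 12 of 160 groups of 4 libraries, over the members described library by library, 1 library stood apart from the other 3 by Dixon's test at its 95% critical value. Chance alone sets about 1 in 20 such groups apart. In the RNA libraries numbered 2, EIF4G1 read 624.7 CPM at 5 h (others 332 to 351.9) and 920.4 CPM at 15 h (others 378 to 450.5). At 5 h the same library also read 283.8 CPM for EIF3F (others 222.5 to 227.2), 422.2 CPM for EIF3L (others 378 to 385.1) and 203.6 CPM for EIF2S1 (others 270.4 to 277.9). RNA 10 h library 1 read 359.5 CPM for EIF2S1 (others 276.3 to 284.6) and 1015 CPM for EIF4A1 (others 1077 to 1089). EIF1B read 24.55 CPM in RNA 0 h library 3 (others 31.78 to 32.88). In footprints, EIF2S3 read 152.5 CPM in 5 h library 2 (others 175.3 to 179.7) and EIF3B 312.3 CPM in 0 h library 3 (others 281.1 to 284.5). EIF5A2 read 10.95 CPM in 0 h library 1 (others 7.436 to 7.96) and 21.04 CPM in 5 h library 4 (others 18.06 to 18.38).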

How the results depend on the processing

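No called change of a member turned direction under any alternative; 41 results that were not called changed sign in at least 1. Of 345 gene results, 333 kept their direction and side of the threshold with DESeq2, 337 with RLE factors, 333 with a filter of 1 CPM, 329 with no filter and 335 with only the 2 times compared; leaving out the RNA libraries numbered 2, chosen after seeing the data and run for the 228 RNA and TE results, kept 207, gained 9 calls and lost 12. RNA counts lower at 10 h were 3 with the 1 CPM filter, no filter or without those libraries, and at 15 h 5 with no filter or without them. From 5 h to 10 h RNA counts higher were 0 without them, and lower 2 with the 1 CPM filter, 1 with no filter, 2 with only the 2 times and 2 without them. From 10 h to 15 h RNA counts lower were 0 with RLE factors, the 1 CPM filter, no filter, only the 2 times, and without them. Footprint counts lower were 2 at 5 h (1 CPM filter, DESeq2) and 2 at 15 h (RLE factors, DESeq2), and 4 were higher from 10 h to 15 h with no filter. TE counts lower at 5 h were 0 with RLE factors, either filter, or only the 2 times. With the run at the first base only, the median TE of TOP-like members was 1.10, 1.24 and 1.34 at 5 h, 10 h and 15 h, and with 10 bases on either side 0.48 at 5 h and 0.51 at 15 h. The median of members without the run was 0.015 at 5 h (first base only), reversed to -0.033 at 5 h and -0.039 at 10 h (10 bases), and was 0.025 at 10 h without the RNA libraries numbered 2. The cause was not tested.

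Leaving out each library in turn gave RNA counts of 11 to 15 higher and 0 lower at 5 h, 12 to 18 higher and 4 to 6 lower at 10 h, and 12 to 17 higher and 6 to 9 lower at 15 h. From 5 h to 10 h RNA gave 0 to 2 higher (0 without RNA 5 h library 2 or 10 h library 3) and 1 to 4 lower (1 without RNA 5 h library 3 or 10 h library 2 or 4), and from 10 h to 15 h 0 to 1 in each direction. Footprints gave 32 to 33 higher and 1 to 2 lower at 5 h, 34 to 36 and 1 at 10 h, 34 to 36 and 1 to 2 at 15 h, 12 to 14 and 5 to 7 from 5 h to 10 h, and 5 to 8 (5 without footprint 10 h library 1, 2 or 3 or 15 h library 4) and 2 to 4 (2 without footprint 10 h library 3) from 10 h to 15 h. TE gave 13 to 15 higher and 0 to 1 lower at 5 h, 13 to 16 and 0 at 10 h, 16 to 18 and 0 at 15 h, and 0 between later times.

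With the replicate number as a block, 3 RNA members were higher from 5 h to 10 h and 2 from 10 h to 15 h, and 14 gene results gained a call and 0 lost one, EIF3A TE at each time and EIF2S2 TE at 5 h and 10 h among the gains. Same-numbered RNA libraries deviated together with a median correlation of 0.181 (17 of 24 pairs over 0.1), against -0.0711 for pairs with different numbers (14 of 72). In footprints the medians were 0.0351 (3 of 24) and -0.0119 (3 of 72). In each assay 11 of 16 libraries had their highest mean correlation with their own number. The labels do not say that a number marks a shared batch, and not every pair was over 0.1, so the numbers were not taken to pair the samples. The main tests and the permutations thus treat libraries as unpaired, although same-numbered RNA libraries deviated together more than others did. RNA depth, at most 1107470 counts in a library, leaves few counts for EIF4E (18) and EIF2D (45) over the 4 starved RNA libraries, and the counted length of EIF2D is 129 bases.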
